A study of Homo sapiens with 6 samples.

Results

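Small proline-rich (SPRR) genes and other genes of the cornified envelope were followed by total RNA sequencing in AGS, a cell line established from a human gastric adenocarcinoma. The 10 genes are SPRR1A, SPRR1B, SPRR2A, SPRR2D, SPRR2E, SPRR2F, SPRR3, IVL, TGM1 and S100P, out of 60604 genes read, and 8 of them lie on chromosome 1. They were chosen by the counts of SPRR2D in the same contrast, which were between 170 and 267 with the drug and 1 or 2 without it. The levels of these 10 genes are therefore given as a description with no test. The groups were 3 libraries from cells given 0.5 mM indomethacin for 24 h and 3 control libraries from the same line at 0 mM, for which the labels give no time. Indomethacin is a non-steroidal anti-inflammatory drug that inhibits cyclooxygenases, and the study asked how such drugs act on gastric cancer cells. AGS is 1 cell line, and whether replicates came from separate cultures is not stated. P-values therefore reflect only how much these libraries vary, and that variation may be technical.

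The cornified envelope is a sheet of cross-linked protein that replaces the plasma membrane of terminally differentiating keratinocytes, the cells of the epidermis and other stratified squamous epithelia. Involucrin (IVL) forms an early scaffold, small proline-rich proteins act as cross-bridging precursors, and transglutaminase 1 (TGM1) joins them by covalent bonds between glutamine and lysine residues. The SPRR genes, involucrin, the filaggrin family and most S100 genes lie together on chromosome 1 in the epidermal differentiation complex. S100P, an S100 calcium-binding protein found in placenta and in many gastrointestinal tumours, lies outside that complex. Gastric epithelium is glandular and forms no cornified envelope.

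The SPRR2 proteins are near copies of one another, and reads from one gene can match another. The coding sequences of SPRR2D and SPRR2F, the SPRR genes that were higher with indomethacin, are shown here because they differ at only 5 of 219 bases (GENCODE 29, stop codon included). Capitals mark the differing bases, which are A58G, T112C, C115T, C130T and A161G from SPRR2D to SPRR2F, with positions counted from 1 at the coding start.
SPRR2D: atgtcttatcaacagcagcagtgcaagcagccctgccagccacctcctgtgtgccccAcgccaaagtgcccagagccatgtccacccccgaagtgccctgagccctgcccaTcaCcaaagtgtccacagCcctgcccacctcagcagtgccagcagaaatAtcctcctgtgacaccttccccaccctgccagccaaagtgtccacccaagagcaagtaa
SPRR2F: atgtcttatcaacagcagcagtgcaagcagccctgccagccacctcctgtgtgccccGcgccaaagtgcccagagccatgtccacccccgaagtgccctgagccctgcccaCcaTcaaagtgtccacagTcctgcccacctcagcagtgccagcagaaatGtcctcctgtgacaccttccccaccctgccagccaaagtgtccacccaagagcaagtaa
Over the 6 SPRR2 genes with an annotated coding sequence, pairwise identity was between 85.1% and 99.5%. Of 1149 windows of 100 bases, the length of a read, in the SPRR2D transcripts, 43 also occurred in another SPRR gene. For SPRR2F it was 0 of 582, for SPRR2A 124 of 610 and for SPRR2E 72 of 635. Of windows of 50 bases, 212 of 1099 in SPRR2D and 115 of 632 in SPRR2F occurred in another SPRR gene, and 64 of these were common to both. How reads with several matching places were counted was not given in the sources used here, so counts of single SPRR2 genes are uncertain to that extent.

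Promoters of 7 of the 10 genes were found in the RefSeq table (GRCh38.p14). Those of SPRR2D, SPRR2E and TGM1 were not, so nothing here describes the promoter of SPRR2D. Most of the 7 belong to SPRR genes, which are related in sequence, so they are not separate observations. The 3 shown are S100P and SPRR2F, both higher with indomethacin, and SPRR2A, a near copy of SPRR2F with 2 counts in the indomethacin libraries. Each runs over the 200 bases before the annotated start, on the strand of the gene, and capitals mark motif matches.
S100P: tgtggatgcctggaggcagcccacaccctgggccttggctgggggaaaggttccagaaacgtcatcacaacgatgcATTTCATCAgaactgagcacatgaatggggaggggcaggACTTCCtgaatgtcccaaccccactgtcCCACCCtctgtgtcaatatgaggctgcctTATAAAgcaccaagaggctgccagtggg
SPRR2F: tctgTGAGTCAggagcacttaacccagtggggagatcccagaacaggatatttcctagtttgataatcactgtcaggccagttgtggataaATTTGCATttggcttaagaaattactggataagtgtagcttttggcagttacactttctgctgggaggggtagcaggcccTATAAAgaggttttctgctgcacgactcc
SPRR2A: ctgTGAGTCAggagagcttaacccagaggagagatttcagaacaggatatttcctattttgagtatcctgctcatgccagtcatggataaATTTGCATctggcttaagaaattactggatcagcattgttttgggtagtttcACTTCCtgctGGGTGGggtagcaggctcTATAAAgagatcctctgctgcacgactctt
They lie at chr4:6693678-6693877 on the plus strand for S100P, chr1:153113517-153113716 on the minus strand for SPRR2F and chr1:153057513-153057712 on the minus strand for SPRR2A. The 250 bases before each start were searched on both strands. The AP-1 motif TGACTCA, bound by FOS and JUN proteins, occurred in 6 of the 7 promoters and in 4.20% of all 35116 promoters in the table. It lay at -196 to -190 in SPRR2F and at -197 to -191 in SPRR2A, in each case as the reverse complement TGAGTCA, and had no match in this window of S100P. The octamer ATTTGCAT, bound by POU factors, was in SPRR2F and SPRR2A, at -109 to -102 and at -110 to -103, and in 1.63% of all promoters. The ETS motif GGAAGT, read as ACTTCC at -58 to -53, was in SPRR2A, and S100P held it at -85 to -80. It had no match in the window of SPRR2F, and occurred in 4 of the 7 promoters and in 19.5% of all. S100P held the composite motif of ATF4 and C/EBP proteins, TGATGNAAT, at -124 to -116, read as ATTTCATCA, which 0.888% of all promoters held. The TATA box TATAAA was in 6 of the 7 and in 10.7% of all. The remaining motifs were the CACC box CCACCC (5 of 7 and 31.3% of all), the TEAD motif GGAATG (3 of 7 and 11.9%), the IRF motif GAAANNGAA (1 of 7 and 6.88%) and the cyclic AMP element TGACGTCA (0 of 7 and 1.65%). No matches overlapped one another in the printed promoters. A match describes these letters only.

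Total counts were between 17535435 and 20094302 in the indomethacin libraries and between 20983189 and 23221077 in the control libraries, so that 3 counts, the limit that a count of 0 allows, stood for 0.128 to 0.180 CPM (counts per TMM-scaled library size). Such limits, and the counting intervals given below, cover counting error only. Mitochondrially encoded genes took 16.7% to 19.7% of counts with indomethacin and 22.8% to 26.8% in control, and with library sizes that left these genes out SPRR2D had a log2 fold change of 7.05, S100P of 5.03 and TGM1 of -1.07. Epithelial markers were counted in all libraries, with KRT18 at 852 and KRT19 at 590 CPM with indomethacin and at 721 and 638 CPM in control. Among the gastric markers, trefoil factor TFF1 averaged 25.2 CPM with indomethacin and 0.775 CPM in control, and pepsinogen C (PGC) 4.50 and 20.8 CPM. Of the 10 markers of immune, endothelial and stromal cells, 8 had too few counts to be tested, ACTA2 did not pass and the collagen gene COL1A1 rose, with 205, 223 and 154 counts with indomethacin and 83, 151 and 91 in control (log2 fold change 1.02, edgeR adjusted p = 0.00051). Their summed level was 13.5 to 15.0 CPM with indomethacin and 8.09 to 10.9 CPM in control, and its part in the results was not tested. Of the 4 squamous markers, KRT5 had no count in any library, TP63, the master regulator of squamous cells, had 0 counts in the indomethacin libraries against 7, 1 and 3 in control, and the desmoglein gene DSG3 had 0, 2 and 1 counts with indomethacin against 0 in every control library. The basal keratin gene KRT14 had 2, 1 and 2 counts with indomethacin and 74, 120 and 116 in control.

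Control replicate 2 stood apart in squamous transcripts. It held 7 genes with at least 10 counts there and at most 1 in every other library, and all 7 are protein coding. They are SPRR3 (56 counts), the keratin gene KRT78 (21), cornulin CRNN (17), CRISP3 (14), the ammonium transporter gene RHCG (12), S100A8 (11) and SPRR2A (10). In the other 5 libraries such genes numbered between 1 and 5, and at most 2 of them were protein coding. Several of these genes are known from stratified squamous epithelium such as that of mouth and oesophagus. KRT4, another keratin of that epithelium, had 35 counts in the same library and between 0 and 5 in the others. The source of these transcripts was not tested. SPRR3 and SPRR2A are given below with and without this library.

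**Figure D1:**
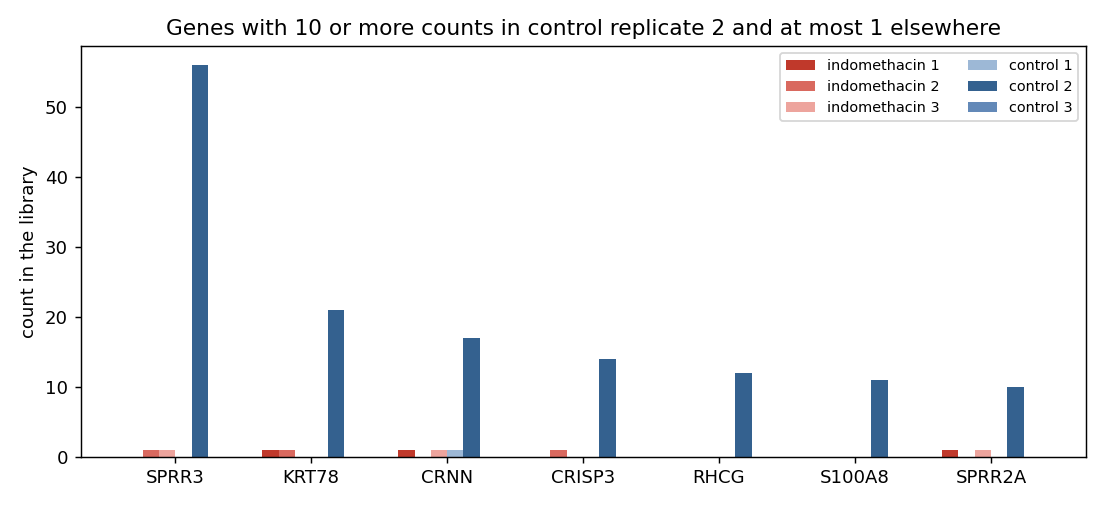
Counts in each of the 6 libraries, indomethacin bars left of control bars, for the 7 genes with 10 or more counts in control replicate 2 and at most 1 in any other library. In control replicate 2 the counts run from 56 for SPRR3 to 10 for SPRR2A, and in the other 5 libraries every gene stands at 0 or 1.

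SPRR2D, SPRR2F and S100P were higher with indomethacin, TGM1 was lower, and the other 6 genes had 6 or fewer counts summed over either group once control replicate 2 was left out. In 4 of the 10 genes the groups did not overlap, 3 of them higher and 1 lower with indomethacin. Over all 17200 genes tested the groups did not overlap in 67.0%, of which 33.7% were higher and 33.3% lower with indomethacin as shares of all genes tested. The 10 include genes too low to be tested, SPRR2F among them, so the shares are for unlike sets of genes. A filter on low counts kept 3 of the 10, SPRR2D, S100P and TGM1. All 3 were past the threshold of edgeR's quasi-likelihood test, 2 of them higher and 1 lower, as were 61.6% of all genes tested (30.6% higher and 31.0% lower), and since the same contrast chose the genes nothing is read from this count. Of the other 7, 6 had counts but were too low to be tested and SPRR2E had none. In bulk RNA, a change in the number of cells that express a gene and a change in RNA per cell cannot be told apart.

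**Figure D2:**
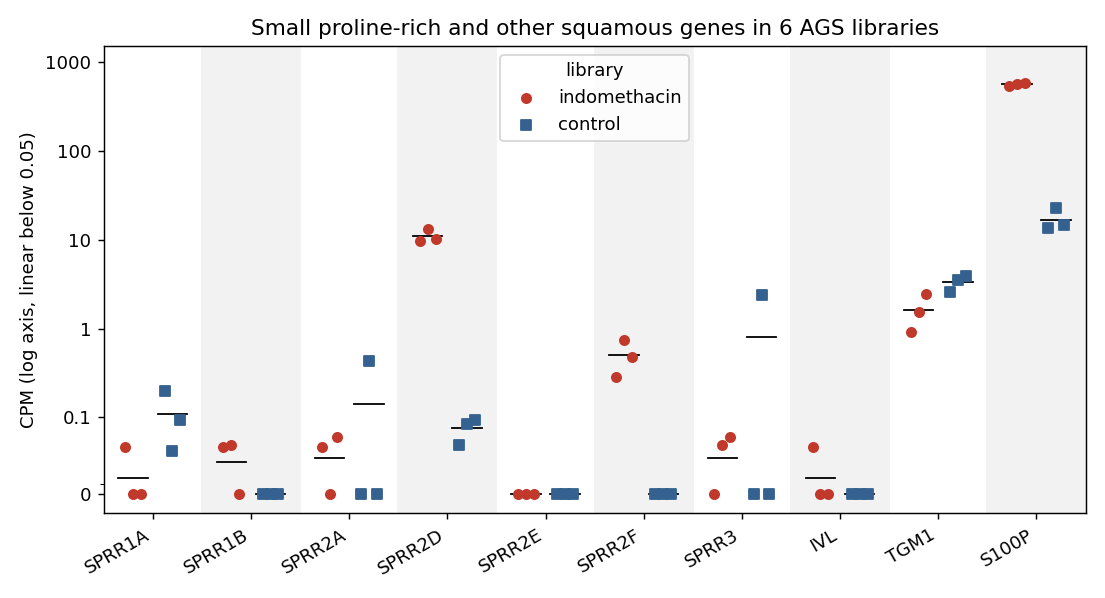
Level of each of the 10 genes in CPM, on a log axis that is linear below 0.05, with 3 indomethacin libraries (circles) left of 3 control libraries (squares) and bars at the group means. SPRR2D, SPRR2F and S100P stand above control in every indomethacin library, TGM1 stands below, and SPRR3 and SPRR2A are raised in 1 control library.

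SPRR2D (ENSG00000163216, chromosome 1, 153039732 to 153041931, minus strand, build hg38) encodes a small proline-rich cross-bridging protein. It had 201, 267 and 170 counts in the indomethacin libraries and 1, 2 and 2 counts in the control libraries. Each indomethacin library held more counts of it than all control libraries together, which had 638 against 5 in sum. The ratio of summed counts at equal depth was 144, with a 95% counting interval of 61.3 to 445. In CPM, SPRR2D stood at 9.55, 13.3 and 10.2 with indomethacin (SD 1.99) and at 0.0490, 0.0853 and 0.0938 in control (SD 0.0238, n = 3 each). Its log2 fold change was 7.06 (SE 0.34), and 30 of the 17200 genes tested had a higher one. The counting interval above, which rests on 5 control counts, is wider than this SE implies, so the SE understates the counting error. With the SPRR2 genes summed to 1 value the log2 fold change was 5.73, and 10 of the 15 control counts in that sum belong to SPRR2A in control replicate 2.

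SPRR2F (ENSG00000244094, chromosome 1, 153112121 to 153113516, minus strand), 5 coding bases away from SPRR2D, had 6, 15 and 8 counts in the indomethacin libraries and 0 in each control library. All 3 indomethacin libraries were thus above all controls, at 0.285, 0.746 and 0.481 CPM. Against a floor of 3 counts over the control group, the 29 summed counts with indomethacin gave a ratio of 10.9. The counting error of those 29 counts is not included, so 10.9 is not a lower bound. SPRR2F did not reach the count needed for a test.

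Other SPRR2 genes had few or no counts with indomethacin. SPRR2A (ENSG00000241794, chromosome 1, 153056120 to 153057512, minus strand) had 1, 0 and 1 counts with indomethacin and 0, 10 and 0 in control, and SPRR2E (ENSG00000203785, chromosome 1, 153093135 to 153106184, minus strand) had 0 in all 6 libraries. The groups overlapped for SPRR2A, whose control counts all came from replicate 2; the ratio was 0.225 (0.0240 to 1.06) with that library, and without it the control sum was 0. SPRR2B, a further copy, had 0, 1 and 1 counts with indomethacin and 0 in control, and SPRR2C, SPRR2G, SPRR4 and SPRR5 had no count. Over the 7 SPRR2 genes the sums were 208, 283 and 180 counts with indomethacin and 1, 12 and 2 in control. SPRR2D made up 95.1% of the SPRR2 sum with indomethacin and 33.3% in control, where replicate 2 supplied 12 of the 15 counts.

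SPRR1A (ENSG00000169474, chromosome 1, 152985231 to 152985500, plus strand) and SPRR1B (ENSG00000169469, chromosome 1, 153031203 to 153032900, plus strand) encode further cross-bridging proteins of the family. Their coding sequences have 270 bases each, against 219 for SPRR2D and 510 for SPRR3. SPRR1A had 1, 0 and 0 counts with indomethacin and 4, 1 and 2 in control, a ratio of 0.161 whose counting interval, 0.00357 to 1.25, includes 1. SPRR1B had 1, 1 and 0 counts with indomethacin and none in control. Neither gene differed between groups beyond counting error at this depth.

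SPRR3 (ENSG00000163209, chromosome 1, 153001747 to 153003856, plus strand), known from oesophageal and oral epithelium, had 0, 1 and 1 counts with indomethacin and 0, 56 and 0 in control. Its level was 2.39 CPM in control replicate 2, and the groups overlapped. The ratio of summed counts, 0.0403 (0.00476 to 0.152), rests on that library, since without it the control sum was 0. Over all 12 SPRR genes the sums were 210, 285 and 181 counts with indomethacin and 5, 69 and 4 in control, and SPRR3 supplied 56 of the 69 counts of control replicate 2.

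IVL (ENSG00000163207, chromosome 1, 152908546 to 152911886, plus strand), the scaffold protein involucrin, had 1, 0 and 0 counts with indomethacin and 0 in every control library, too few for a comparison.

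TGM1 (ENSG00000092295, chromosome 14, 24249114 to 24264432, minus strand), the membrane-anchored enzyme that cross-links SPRR proteins and involucrin in keratinocytes, had 19, 31 and 41 counts with indomethacin and 53, 83 and 83 in control. Every indomethacin library was below every control library, at 0.903, 1.54 and 2.46 CPM against 2.60, 3.54 and 3.89 CPM. The highest indomethacin and the lowest control value lay close together. The mean was 1.64 ± 0.784 CPM with indomethacin and 3.34 ± 0.669 CPM in control (SD, n = 3 each), 2.08-fold lower with indomethacin (log2 fold change -1.05, SE 0.34). It was -0.78 without indomethacin replicate 1 and -1.46 without indomethacin replicate 3.

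S100P (ENSG00000163993, chromosome 4, 6693878 to 6697170, plus strand) was the most abundant of the 10 genes. It had 11047, 11371 and 9543 counts in the indomethacin libraries and 275, 526 and 307 in the control libraries. The lowest indomethacin library held more counts than all controls together, and control replicate 2 was the highest of the controls. The level was 555 ± 25.9 CPM with indomethacin and 16.8 ± 4.92 CPM in control (SD, n = 3 each), 33.0-fold higher, with a log2 fold change of 5.04 (SE 0.18) that 79 of the genes tested exceeded. The log2 fold change was 5.27 without control replicate 2.

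Per kilobase of exon, as the deposited tables give gene length, S100P stood at 1178 ± 55.0 CPM per kb with indomethacin, followed by SPRR2D at 10.5 ± 1.89, SPRR2F at 0.747 ± 0.343 and TGM1 at 0.438 CPM per kb. The difference between SPRR2F and TGM1 in this order was smaller than the SD of SPRR2F. In control S100P was again first, at 35.6 ± 10.5 CPM per kb, and TGM1 followed at 0.895. SPRR3 at 0.553, SPRR1A at 0.411 and SPRR2A at 0.210 came next, ahead of SPRR2D at 0.0723 ± 0.0226 CPM per kb. All control counts of SPRR3 and SPRR2A came from replicate 2, and SPRR1A had 7 control counts in sum. No exon of the 10 genes overlaps an exon of another gene with counts.

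The SPRR genes lie between 152947154 and 153150890 on chromosome 1. The surrounding stretch from S100A10 to S100A1 (151982915 to 153632039, 1649 kb) holds 90 genes, 51 of them with counts. Of its 82 genes outside the 10 members, 17 were tested, of which 5 were higher and 9 lower with indomethacin at a Benjamini-Hochberg adjusted p under 0.05 in edgeR's quasi-likelihood test, and 3 did not pass; over all genes tested 30.6% were higher and 31.0% lower. The median log2 fold change of the 17 was -0.57, and that of all genes tested was 0.04. Most of the 17 are counted again below, as the 4 tested late envelope genes and the 10 tested S100 genes. The counts of these lists are therefore not separate observations. Between the SPRR genes and PRR9 no gene reached a mean of 1 CPM. PRR9, 67 kb beyond the last SPRR gene and 176 kb from the start of SPRR2D, had 155, 193 and 94 counts with indomethacin and 33, 23 and 22 in control, without overlap (log2 fold change 2.65, SE 0.28, adjusted p = 1.9e-06, edgeR). On the other side the nearest gene at that level was FLG-AS1, 502 kb away, which was lower at 4.70 ± 1.34 CPM with indomethacin and 10.3 ± 2.31 CPM in control (-1.15, adjusted p = 0.00058, edgeR). FLG-AS1 shares 1587 exonic bases with FLG on the other strand, so both values are uncertain. The promoter of PRR9 (chr1:153217384-153217583, plus strand) holds an AP-1 match, as TGACTCA at -137 to -131, beside a TATA box at -29 to -24. Such a match was also in SPRR1A, SPRR1B, SPRR2A, SPRR3 and IVL, each with 1 or 2 summed counts with indomethacin. S100P, which was higher, had none in the window searched. Promoters of genes that fell in this stretch are not shown.
PRR9: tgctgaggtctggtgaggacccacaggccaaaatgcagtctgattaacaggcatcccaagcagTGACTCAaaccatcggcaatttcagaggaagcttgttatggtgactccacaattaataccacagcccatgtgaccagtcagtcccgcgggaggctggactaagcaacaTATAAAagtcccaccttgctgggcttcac

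**Figure D3:**
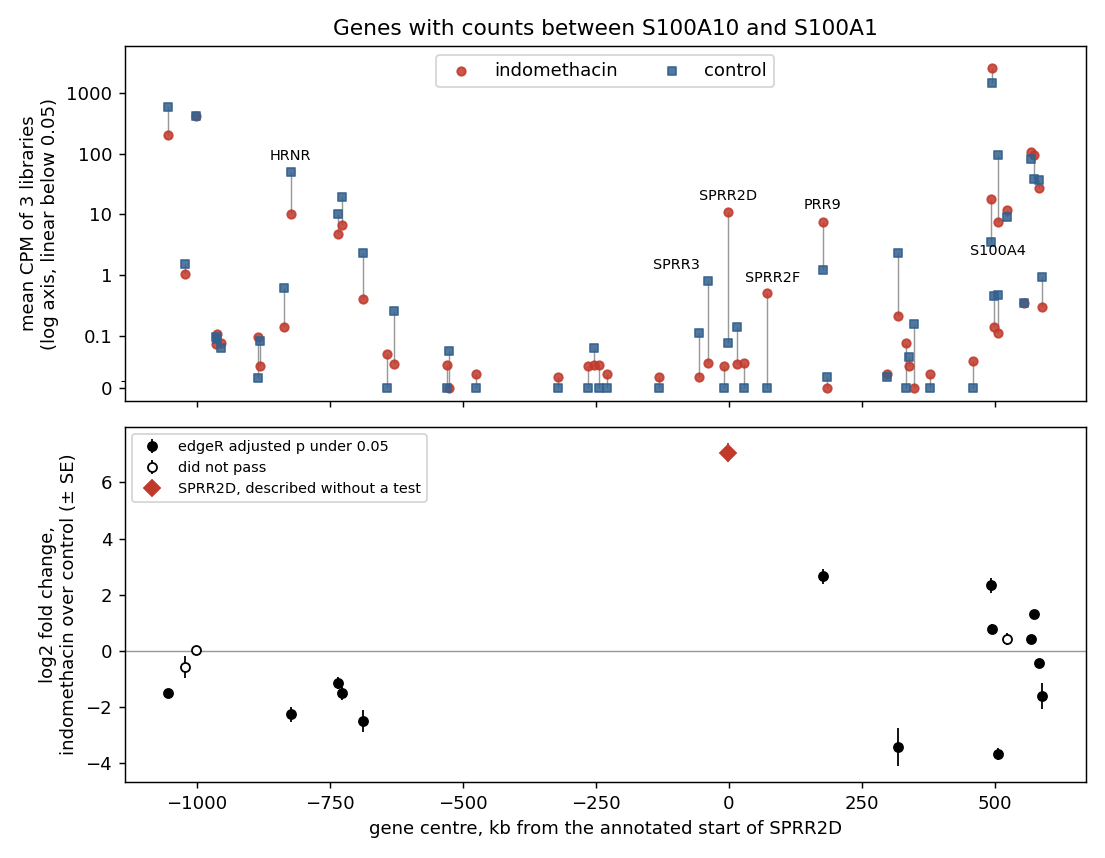
Genes with counts from S100A10 to S100A1, placed by distance in kb from the annotated start of SPRR2D. The upper panel gives mean CPM of 3 indomethacin (circles) and 3 control libraries (squares) on a log axis that is linear below 0.05, and the lower panel the log2 fold change of indomethacin over control ± SE for tested genes, with SPRR2D at 7.06 and PRR9 at 2.65. The counting interval of SPRR2D is wider than its SE bar implies.

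Other envelope genes were counted from lists chosen with earlier results of these data known. As a background for the counts of each list below, 30.6% of all genes tested were higher and 31.0% lower with indomethacin. Of 30 late envelope genes, which include loricrin, the filaggrin family and the late cornified envelope (LCE) genes, 16 had no count, 10 had too few to be tested, 1 rose and 3 fell, with a median log2 fold change of -1.88. Loricrin had no count in any library. PRR9 was the gene that rose. The filaggrin family genes FLG2 (log2 fold change -2.50, adjusted p = 7.3e-05), HRNR (-2.26, adjusted p = 7e-06) and FLG (-1.51, adjusted p = 6.2e-05; by edgeR, as above) fell. HRNR averaged 10.3 ± 1.88 CPM with indomethacin and 49.5 ± 24.7 CPM in control (n = 3 each). FLG2 had 10, 10 and 4 counts with indomethacin and 60, 57 and 36 in control, so that the groups did not overlap. While SPRR2D was higher, the tested genes of the filaggrin family in the same complex were thus lower with indomethacin.

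Of 26 other envelope precursors and desmosome genes, 14 were tested, 4 rose, 2 fell and 8 did not pass, with a median log2 fold change of 0.13. ECM1, a secreted matrix glycoprotein, rose to 26.4 ± 4.24 CPM with indomethacin, against 1.80 ± 0.213 CPM in control (log2 fold change 3.86, SE 0.18, adjusted p = 1.1e-09, edgeR; n = 3 each). The envelope plakin periplakin (PPL) rose by 0.51, and the desmosomal plaque gene PKP2 fell by 2.17 on the log2 scale, to 52.4 ± 8.93 CPM with indomethacin against 235 ± 12.7 CPM in control. KAZN, which binds periplakin, had a log2 fold change of -1.14 (adjusted p = 0.0098, edgeR) and shares 3452 of 13860 exonic bases with TMEM51-AS1. The count of genes that fell was 5 without indomethacin replicate 1, 2 or 3, 4 without control replicate 1, 3 without control replicate 2 and 6 with no filter on low counts.

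Of the other 7 transglutaminases and relatives, 3 had no count, 2 were too low and 2 were tested. TGM2, tissue transglutaminase, had 14, 17 and 3 counts with indomethacin and 52, 82 and 61 in control, without overlap (log2 fold change -2.35, SE 0.40, adjusted p = 0.00015, edgeR), as TGM1 was lower too. It shares 396 of 7948 exonic bases with RPRD1B on the opposite strand. TGM4 did not pass (0.33, adjusted p = 0.56, edgeR), and the epidermal TGM3 had no count.

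Among 19 other S100 genes, 10 were tested, of which 3 rose, 5 fell and 2 did not pass (median log2 fold change -0.22). S100A14 rose to 95.7 ± 6.97 CPM with indomethacin, against 38.2 ± 1.72 CPM in control (1.32, adjusted p = 1.2e-07, edgeR; n = 3 each). S100A6 rose by 0.79, with 23 of its 971 exonic bases shared with a gene on the other strand. S100A4 (-3.67, adjusted p = 8e-09, edgeR) and S100A10 (-1.50, adjusted p = 9.9e-08, edgeR) fell. With indomethacin S100P was second in the family per kilobase, at 1178 CPM per kb behind S100A6 at 2658 and ahead of S100A11 at 648, and the libraries of these neighbours did not overlap its own. In control it was sixth, between S100A16 and S100A14. There its libraries ran from 28.6 to 47.6 CPM per kb and overlapped those of S100A16, from 43.7 to 50.5, and of S100A14, from 28.8 to 31.4. S100A8 and S100A9, the calgranulins, were low, with S100A8 counted only in control replicate 2. S100A9 had 6, 1 and 5 counts with indomethacin and 12, 76 and 66 in control.

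Of 20 keratins of stratified epithelia, 7 were tested, of which 2 rose, 3 fell and 2 did not pass (median log2 fold change -0.24). KRT16, a keratin of activated and wounded epidermis, had 53, 64 and 43 counts with indomethacin and 6, 12 and 8 in control (2.78, SE 0.34, adjusted p = 9.4e-06, edgeR), and KRT10 rose by 0.87, with 56 of 2163 exonic bases shared with KRT10-AS1. KRT14 fell to 0.0883 CPM with indomethacin, against 4.73 ± 0.967 CPM in control (-5.68, adjusted p = 6.7e-08, edgeR). KRT13, a keratin of non-cornified stratified epithelium, fell by 3.74 on the log2 scale.

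Of 41 transcription regulators known from squamous cells, among them factors that bind SPRR promoters in keratinocytes, 32 were tested, of which 21 rose, 5 fell and 6 did not pass. Over all genes tested 30.6% were higher and 31.0% lower. The median log2 fold change of the list was 0.93, against 0.04 over all genes. Since this list too was chosen with earlier results of these data known, nothing is read from the difference. KLF4 rose to 76.5 ± 5.10 CPM with indomethacin, against 9.40 ± 2.33 CPM in control (3.02, SE 0.16, adjusted p = 2.3e-09, edgeR; n = 3 each). PRDM1, a transcriptional repressor, rose to 35.3 ± 2.38 CPM against 5.61 ± 0.603 CPM in control (2.65, adjusted p = 2e-09, edgeR). The AP-1 subunit gene FOSL1 rose to 25.2 ± 3.68 CPM against 5.75 ± 1.01 CPM in control (2.13, adjusted p = 1.1e-07, edgeR). The genes that fell were EHF, an epithelial ETS factor (0.768 ± 0.494 CPM with indomethacin and 26.1 ± 8.74 CPM in control), SOX2, POU2F3, NOTCH2 and HES1, of which the last 4 were chosen after their values were seen. HES1 had 1331, 975 and 911 counts with indomethacin and 8652, 2055 and 2480 in control, so control replicate 1 stood above the other controls.

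Of 22 genes of envelope lipids and desquamation, 17 were tested, of which 6 rose, 5 fell and 6 did not pass (median -0.23). Among those that fell were the ceramide synthesis genes DEGS2 (-2.99, 280 of 3948 exonic bases shared with EVL on the opposite strand) and SPTLC2 (-1.09) and the protease gene ST14 (-1.01), with edgeR adjusted p between 1.7e-07 and 4e-06.

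**Figure D4:**
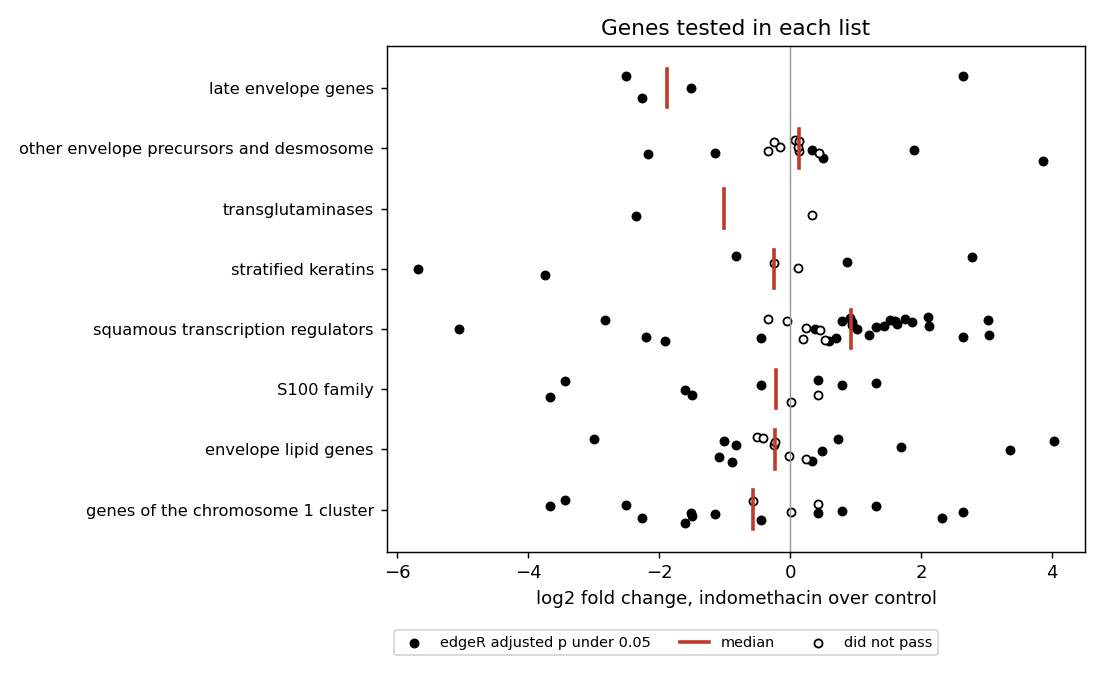
Log2 fold change of indomethacin over control for each tested gene of 8 lists, members left out. Filled points passed edgeR's test at an adjusted p under 0.05, open points did not, and red bars are medians, from -1.88 for late envelope genes to 0.93 for squamous transcription regulators. The tested late envelope and S100 genes also belong to the list of the chromosome 1 stretch, so lists share genes.

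The genes whose log2 CPM followed SPRR2D most closely over the 6 libraries were LVRN (Pearson r = 0.9996), NR1D1 (0.9995), ITPKA (0.9993), DOCK6 (0.9992) and PLEC (0.9992). These values are a description only, since the 6 points fall into the indomethacin and the control group, and 359 of 11579 protein-coding genes compared had r of 0.99 or more. LVRN, an aminopeptidase gene, averaged 2.53 ± 0.183 CPM with indomethacin and 0.168 ± 0.0203 CPM in control. ITPKA, which encodes an inositol trisphosphate kinase, averaged 104 ± 19.1 CPM and 3.61 ± 0.169 CPM. The heme receptor and clock gene NR1D1, which shares 473 of 2630 exonic bases with THRA on the opposite strand, averaged 28.0 ± 2.62 CPM with indomethacin and 5.26 ± 0.248 CPM in control. In these genes, as in SPRR2D, indomethacin replicate 2 was the highest of its group. Since the genes were chosen by correlation with SPRR2D over the same libraries, nothing is read from this shared order.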

How the data were processed

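Total RNA of AGS cells was sequenced in 6 libraries, as pairs of 100-base reads, after depletion of ribosomal RNA with a stranded kit, per the labels' protocols. Per the submitters' processing notes, bcl2fastq, FastQC 0.11.7, cutadapt 1.16, HISAT2 2.1.0, SAMtools, featureCounts and DESeq2 were used with build hg38. Their order and settings, strand and multiply mapped reads included, are not given in the sources used here. The authors deposited raw counts per gene, 1 table a library, with exon coordinates and length, per the file headers. Of the 60607 lines in each file, 3, all from the broken line of 1 gene, were left out. Symbols covered 60462 of the 60604 genes and GENCODE 29 types 58336.

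The members and lists were chosen with earlier results of these data known. Genes were filtered with filterByExpr, scaled by TMM and put through edgeR's quasi-likelihood test (edgeR 4.0.16, R 4.3.3) over all 17200 genes that passed, with group as the only term, Benjamini-Hochberg adjustment and a threshold of 0.05. CPM use TMM library sizes, and means are given ± SD. Ratios of summed counts have exact conditional 95% intervals, and the floor is 3 counts. The code was tested on simulated data in which few genes changed, in equal numbers up and down. That setting does not probe TMM scaling where 61.6% of genes tested pass, as here. Alternatives were limma-voom (limma 3.58.1), DESeq2 1.42.0, RLE and upper-quartile factors, library sizes without mitochondrial genes, no filter, 1 CPM in 3 libraries, the replicate block, each library left out, and SPRR2 genes summed. No filter with control replicate 2 left out was added after the data were seen.

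Named genes were the 10 members, up to 4 genes per list that passed, averaged 1 CPM or more and had the smallest adjusted p, every counted SPRR gene, the 5 protein-coding genes of highest Pearson correlation with SPRR2D (log2 CPM, prior count 2), and the nearest gene with a mean of 1 CPM on each side of the SPRR genes. A gene that the rule names among the envelope lipid genes is not reported here. Genes of control replicate 2, and others named as such, were chosen after their values were seen. Sequences came from RefSeq and GENCODE 29 tables, matched by symbol.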

Additional observations from a re-analysis of the deposited data

How the results depend on the processing

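A log2 fold change of a member was taken as moved when it changed by more than the larger SD of its log2 CPM within a group, which was 0.25 for SPRR2D, 0.68 for TGM1 and 0.40 for S100P. The other 26 named genes compared were judged by direction and by side of the threshold. Most of them were named for a small adjusted p in these same data, so this comparison could hardly show a move. Of 407 such values under the alternatives, 404 did not move, 3 moved and 0 reversed. Since most of the 407 belong to those genes, the total says little about stability. The 3 were those of SPRR2D, 7.06 in the main analysis, which was 6.81 with limma-voom, 6.80 without control replicate 1 and 5.73 with the SPRR2 genes summed. Of 295 counts, 287 stayed within 1.5 times. They include counts for the 5 SPRR genes outside the members, none of which was tested in the main analysis. These, and the count of transglutaminases that rose, were 0 in every setting and add nothing to the tally.

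With no filter on low counts, 5 members passed the threshold in place of 3, the additions being SPRR2F and SPRR3, and 29.4% of all genes tested passed. With control replicate 2 also left out, an alternative chosen after seeing the data, 4 passed and 26.8% of all genes. SPRR3 then had 2 counts with indomethacin and 0 in control. As the contrast chose the members, nothing is read from these counts. Other envelope and desmosome genes that fell numbered 2, against 6 with no filter and 2 to 5 with 1 replicate left out. S100 genes that fell numbered 5, against 3 at 1 CPM in 3 libraries, and keratins that fell numbered 3, against 5 with no filter. The cause was not tested. The median log2 fold change of all genes, 0.04, was 0.16 with upper-quartile factors and 0.20 with no filter.

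Whether replicate numbers pair the samples is not stated. Deviations of same-numbered libraries correlated at 0.02, 0.01 and 0.13, and those of differently numbered libraries at -0.14 to 0.13. With 3 libraries per group these values cannot decide whether the samples were paired. With the replicate block, 3 members and 61.6% of all genes tested passed, and SPRR2D, S100P and TGM1 had log2 fold changes of 7.07, 5.08 and -1.09. Not every library correlated best with its own number.

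Depth limits what can be said of SPRR1A, SPRR1B, SPRR2A, SPRR2E and IVL, each with 10 or fewer counts per group.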
